A study of Homo sapiens with 2 samples.

Results

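The 51 genes described here encode the proteins that mark, open and copy replication origins, and they were taken as a named list of DNA replication genes, each through the probe sets paired with that gene alone. All 51 were found on the array, of 19775 genes with such a probe set, and all 51 passed the brightness filter that left 13704 measured genes. HCT116 is an established cell line from a human colorectal cancer, and RNA of 2 of its cultures was measured on 1 expression array each. The first culture, HCT116-GFP, is labelled wild type, and the second, HCT116-CPEB4, is labelled as over-expressing CPEB4 through a lentivirus. Both were grown in RPMI-1640 with foetal calf serum, penicillin and streptomycin. CPEB4 is an RNA-binding protein that acts on the poly(A) tails and the translation of mRNAs. The sources used here do not say whether the HCT116-GFP cells carry a vector of their own or whether either line is 1 clone. With 1 array for each group there is no replicate and no test, so every difference is a description of these arrays and no p-value is given.

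DNA replication begins when the origin recognition complex (ORC), with CDC6 and CDT1, loads the ring-shaped MCM2-7 helicase onto DNA, a step called licensing. The kinase CDC7 with DBF4, and then CDC45 and the GINS complex, turn the loaded ring into an active helicase, and the polymerases, the sliding clamp PCNA and its loader copy the opened strands. Many of these genes are transcribed in late G1 and S phase under E2F transcription factors, and their mRNAs are abundant in dividing cells such as those of a colorectal cancer line.

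The letters an E2F factor is known to bind are shown first, because they are a promoter feature that the listed genes hold more often than genes at large. Promoters were read from RefSeq on build GRCh38.p14, in windows of 300 bases, 250 before and 50 after an annotated transcription start. Of the 51 genes, 44 had at least 1 window, and MCM4, MCM5, GINS4, POLD3, RPA2, RPA3 and DNA2 had none. The octamers TTTGGCGC, TTTCCCGC and TTTCGCGC were searched on both strands, with overlapping matches counted. At least 1 of them lay in a window of 22 of the 44 genes (50%), against 902 of 27305 genes in the whole promoter table (3.30%) and 5.24% of the 11041 measured genes with a window. TTTCCCGC was present for 11 of the 44 genes, TTTGGCGC for 9 and TTTCGCGC for 5. In 15 of the 22 genes a match lay before the start, and in 7 (CDC6, CLSPN, GINS1, GINS3, MCM2, MCM8 and POLE2) it lay only in the 50 bases after it. Of motifs from other factors, CCAAT was present for 56.8% of the 44 genes and 39.7% of all genes, and TTTGAA, the core of an element of mitotic promoters, for 4.55% and 18.2%. A match is a description of letters and not evidence of a bound factor.

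The upstream stretches below are from 6 genes with a match whose RNA signal read higher on the array labelled HCT116-CPEB4 (CDT1, GINS2, TIPIN, GMNN, RFC3 and MCM6), and from PCNA and LIG1, which also have a match but did not read higher. Capitals mark the octamers on either strand, and each sequence is written 5′ to 3′ on the strand of its gene.
CDT1, chr16:88803709-88803788, plus strand: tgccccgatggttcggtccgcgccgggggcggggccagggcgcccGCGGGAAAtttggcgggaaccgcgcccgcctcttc
GINS2, chr16:85688955-85689030, minus strand: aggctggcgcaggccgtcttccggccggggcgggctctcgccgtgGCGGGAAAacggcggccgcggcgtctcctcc
TIPIN, chr15:66356695-66356796, minus strand: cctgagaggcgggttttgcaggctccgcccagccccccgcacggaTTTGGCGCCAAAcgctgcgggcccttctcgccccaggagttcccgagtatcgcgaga
GMNN, chr6:24775288-24775385, plus strand: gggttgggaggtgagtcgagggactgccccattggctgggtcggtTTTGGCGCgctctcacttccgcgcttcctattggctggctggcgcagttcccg
RFC3, chr13:33818049-33818146, plus strand: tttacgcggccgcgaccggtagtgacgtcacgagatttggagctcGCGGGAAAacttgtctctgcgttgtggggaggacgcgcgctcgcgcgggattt
MCM6, chr2:135876477-135876640, minus strand: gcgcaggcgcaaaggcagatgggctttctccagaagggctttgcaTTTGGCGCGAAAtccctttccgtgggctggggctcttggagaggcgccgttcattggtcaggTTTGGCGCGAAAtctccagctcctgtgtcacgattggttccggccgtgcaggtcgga
PCNA, chr20:5126629-5126726, minus strand: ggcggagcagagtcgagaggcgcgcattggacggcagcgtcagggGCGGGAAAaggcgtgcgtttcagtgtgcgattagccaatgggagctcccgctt
LIG1, chr19:48170406-48170503, minus strand: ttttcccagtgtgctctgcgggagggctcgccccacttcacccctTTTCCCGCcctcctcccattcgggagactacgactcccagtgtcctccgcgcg
In CDT1, GINS2, RFC3 and PCNA the match was to TTTCCCGC in reverse (GCGGGAAA), beginning 35, 31, 55 and 59 bases before the start. In LIG1 the same octamer lay forward, 114 bases before the start. GMNN had TTTGGCGC 80 bases before the start. TIPIN had the palindrome TTTGGCGCCAAA, which counts as 1 match on each strand. The MCM6 window held the joined form TTTGGCGCGAAA at 2 places, 4 octamers in all, between 152 and 86 bases before the start.

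Some values of the whole comparison bear on the genes that follow. Both arrays have a trimmed mean intensity of 500.1 (2% of values removed at each end). The 3 probe sets of CPEB4 that passed the filter read lower on the array with its name, by log2 differences of −0.075 to −0.44, and the remaining one, below the filter on both arrays, read 60.1 and 21.0 (−1.52), so the direction of every difference rests on the labels. The sources used here do not place these probe sets in the transcript, and any that lie outside the introduced sequence would check nothing. Epithelial markers EPCAM, KRT8, KRT18, KRT19 and CDH1 were bright on both arrays (summed signal of all 8 markers 87588 and 88481), although CDX2 was dim, VIL1 passed the filter on 1 array alone and CDH17 on neither. Of 15 markers of stroma, blood and endothelium on the array, 3 reached the filter on both arrays. These were COL1A1 (949 in HCT116-GFP and 1292 on the CPEB4-labelled array), HBB (328 and 287) and PECAM1 (150 and 95.0). The summed signal of all 15 was 1793 and 2122, with COL1A1 as the largest part. The 3′ control probe set of ACTB was 8.23 times as bright as the 5′ one in HCT116-GFP and 10.3 times as bright on the CPEB4-labelled array (GAPDH 0.989 and 1.04), a measure that grows with RNA degradation. Its part in the differences below was not tested.

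Replication genes as a group read higher on the CPEB4-labelled array. Each gene is represented by its brightest kept probe set, a level is a linear intensity in arbitrary units, and a difference is the log2 intensity of the CPEB4-labelled array minus that of the HCT116-GFP array. Pairs of intensities are given with HCT116-GFP first. Of the 51 genes, 45 lay above 0 (88.2%), against 50.1% of all measured genes, and 6 lay below 0, against 49.9%. The median difference was 0.25, or 1.19-fold, with the genes from the 25th to the 75th percentile between 0.12 and 0.44, whereas the median of all measured genes was 0.00090 with those percentiles at −0.23 and 0.22. A difference of 1.5-fold or more upwards was found for 8 of the 51 genes (15.7%), where 8.22% of all measured genes passed it. Dim genes scatter widely. Among the 8459 brighter genes, those with an array at or above 377 intensity units, the same share was 2.67%. Of the 51 genes, 49 are of that kind. POLD3, DNA2 and POLA2 reached that level on the CPEB4-labelled array alone, where they read higher. For POLD3, which is among the 8, this comparison therefore adds no support. In bulk RNA, more cells of a kind (here, cells in S phase) and more RNA per cell cannot be told apart. The 8 genes were GINS2, POLD3, RFC2, ORC6, CDT1, CDC6, TIPIN and MCM5. Averaged over the kept probe sets of each gene, 6 of the 51 passed 1.5-fold, against 9.44% of all measured genes. GINS2 (0.45), RFC2 (0.58) and MCM5 (0.50) were then under it and MCM10 (0.70) past it. Without the probe sets marked _x_at or _s_at, 4 of 38 genes passed it, against 9.63% of the 10778 genes measured there. RFC2 (0.45) and MCM5 (0.40) were under it there too, and ORC6 and CDT1 had no value. Under both of these alternatives, the share of replication genes past 1.5-fold upwards was close to that of all measured genes. None of the 51 was lower by 1.5-fold (8.3% of all measured genes), and none differed by 2-fold in either direction (3.55% of all measured genes higher, 3.85% lower). Among the 8459 brighter genes these shares were 2.16% lower by 1.5-fold, 0.461% higher by 2-fold and 0.166% lower by 2-fold, so few brighter genes of any kind passed these limits.

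**Figure D1:**
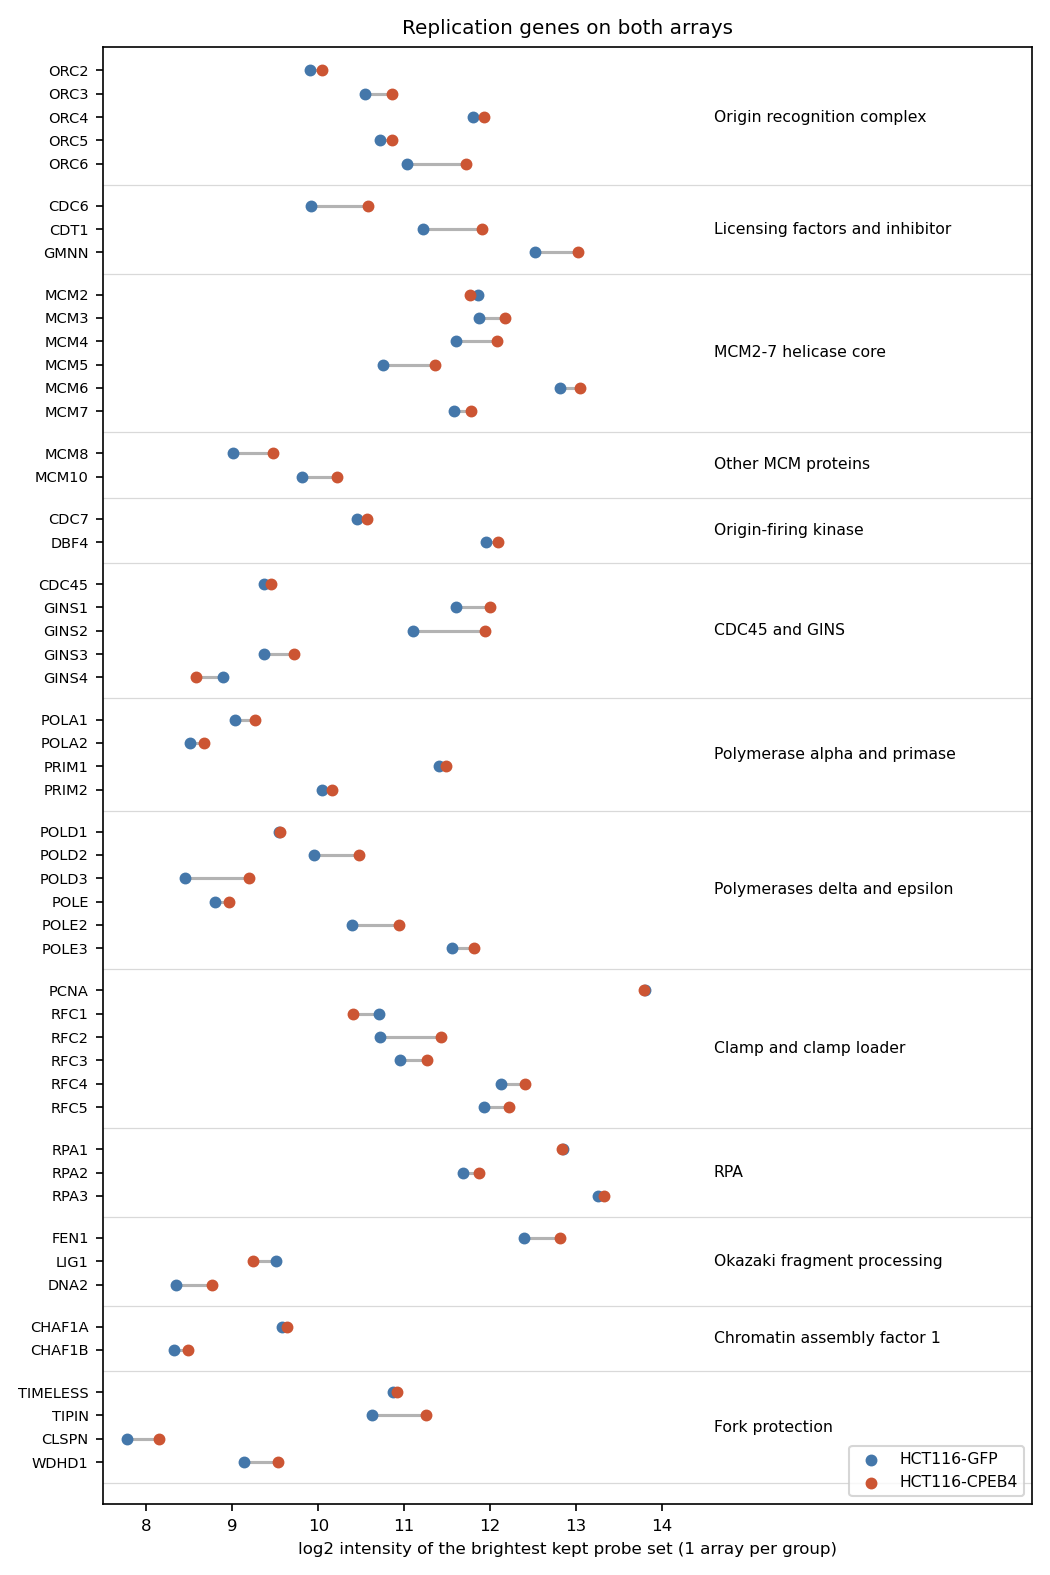
Log2 intensity of the brightest kept probe set of each of the 51 replication genes on the HCT116-GFP array (blue) and on the array labelled HCT116-CPEB4 (red), ordered by role, with a grey line joining the values of a gene. The red point lies to the right for 45 genes, and the largest gap is that of GINS2 (0.83).

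The shift was seen over the whole range of brightness that the genes cover. Split by mean intensity into 4 bins, the 51 genes had medians of 0.23, 0.13, 0.39 and 0.23 from the dimmest bin to the brightest, with 11 of 13, 11 of 12, 13 of 13 and 10 of 13 genes above 0. Other measured genes in the same brightness ranges had medians of 0.023, 0.0073, −0.015 and −0.0024. The shares of these other genes above 0 were 52.9%, 50.8%, 48.0% and 49.5%, in the same order. The bin where all 13 replication genes lay above 0 spans mean intensities of 1902 to 3582 and holds 1553 other genes.

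**Figure D2:**
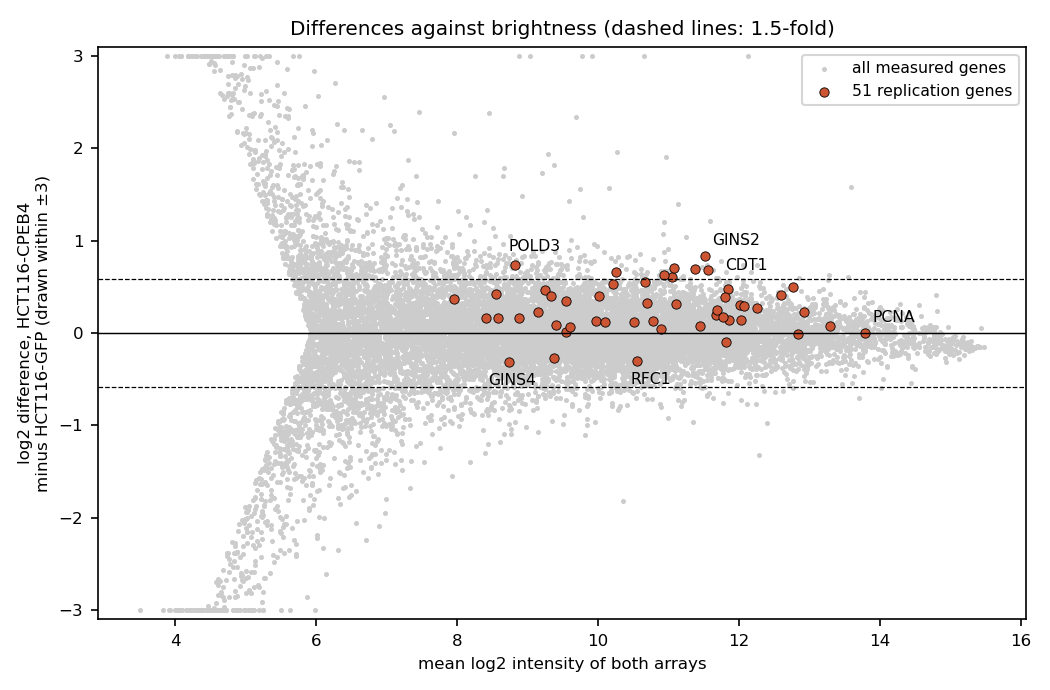
Log2 difference (CPEB4-labelled array minus HCT116-GFP array) against mean log2 intensity for all 13704 measured genes (grey, drawn within ±3) and the 51 replication genes (red), with dashed lines at 1.5-fold. The red points lie mostly above 0 at every brightness, with 8 at or above the upper dashed line and none below the lower one.

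The licensing factors had the largest median of any role, 0.66 over 3 genes. CDC6, the ATPase that joins ORC at origins, gave 968 intensity units in HCT116-GFP and 1531 on the CPEB4-labelled array (difference 0.66), and its other probe set read 704 and 1216 (0.79). CDT1, which brings the helicase to the origin, read 2382 and 3821 (0.68), and 0.61 at the other probe set. GMNN, which encodes geminin, the inhibitor of CDT1, read 5884 and 8318 (0.50) at its only probe set. Thus the loading factors and their inhibitor differed in the same direction, and all 5 probe sets of these genes read higher on the CPEB4-labelled array. All of these probe sets except the dimmer one of CDC6 are marked _x_at or _s_at and may read related genes.

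Among the 5 ORC subunits, ORC6 stood apart from the rest. ORC6, the small subunit outside the ATPase core, read 2086 and 3381, a difference of 0.70. ORC3 read 1488 and 1858 (0.32), and each of ORC6 and ORC3 has 1 probe set. That of ORC6 is marked _x_at and that of ORC3 _s_at, so both may read related genes. ORC2, ORC4 and ORC5 differed by 0.13, 0.14 and 0.13. The second probe sets of ORC2 and ORC4 read slightly lower on the CPEB4-labelled array (−0.013 and −0.089), so no direction can be given for those 2 subunits. ORC1, the largest subunit and a gene outside the list, read 455 and 402 (−0.18).

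Of the 6 subunits of the MCM2-7 ring, the motor of the replicative helicase, 5 read higher on the CPEB4-labelled array, and the median of the 6 was 0.27. MCM5 read 1727 and 2625 (0.60), with 0.40 at its second probe set. MCM4 read 3111 and 4319 (0.47), and its other kept probe sets differed by 0.24, 0.16 and 0.51. MCM3 read 3739 and 4626 (0.31). The brightest probe set of MCM6 read 7189 and 8423 (0.23), and its dimmer one read 227 and 346 (0.61). MCM4, MCM5 and MCM6 thus had every kept probe set above 0, and MCM3 lay above 0 at its only probe set.

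The remaining subunits of the ring did not show that pattern. MCM7 differed by 0.19 at one probe set (3070.4 and 3512) and by −0.10 at another of similar brightness (2271 and 2112). MCM2 read 3715 and 3485 (−0.092) at its only probe set. Subunits that form 1 ring in equal numbers therefore ranged from −0.092 to 0.60 in their mRNA difference. Of the MCM proteins outside the ring, MCM10, which helps to activate the helicase, read 899.7 and 1188 (0.40), with larger differences of 0.96 and 0.75 at its other probe sets. MCM8, a helicase linked to recombination, read 515 and 709.8 (0.46).

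The step from a loaded ring to an active helicase was uneven. At the brightest probe sets, GINS2 had the largest difference of the 51 genes, with 2201 and 3919 (0.83, or 1.78-fold). Its second probe set was also higher (76.6 and 164, 1.10), while the dimmest, close to the brightness filter of 60.8, read 64.1 and 43 (−0.58). Averaged over its 3 probe sets the difference was 0.45, below those of CDC6 (0.72), MCM10 (0.70), ORC6 (0.70) and POLD3 (0.67). Also above it were CDT1 (0.64), TIPIN (0.63), RFC2 (0.58), CHAF1A (0.55), POLE2 (0.55), POLD2 (0.53), MCM5 (0.50), GMNN (0.50) and MCM8 (0.46). The POLD3 average includes a probe set that passed the filter on 1 array alone. The GINS partners GINS1 (3119 and 4077, 0.39) and GINS3 (662 and 842, 0.35) were higher too. GINS4, the remaining subunit, read 476 and 382 (−0.32), the lowest difference of the 51 genes at the brightest probe sets, with 0.30 at a dimmer probe set and −0.0055 as the average. CDC45, which joins GINS and the MCM ring, differed by 0.086 (659 and 699). The kinase CDC7 (0.11) and its activator DBF4 (0.14) differed by little.

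For polymerases delta and epsilon, all 6 listed genes lay above 0 at their brightest probe sets, and the accessory subunits POLD3, POLE2 and POLD2 differed most. The subunits POLD4 (−0.33) and POLE4 (−0.28), which are outside the list, read lower on the CPEB4-labelled array. POLD3, a subunit of polymerase delta that holds the enzyme to PCNA, read 351 and 584 (0.73), and its other probe set read 60.8 and 91.9 (0.60). That probe set passed the filter through the CPEB4-labelled array alone, so its direction adds no support. POLE2, the second subunit of polymerase epsilon, read 1339 and 1963 (0.55), and POLD2, the second subunit of polymerase delta, read 989 and 1425 (0.53). The catalytic subunits POLD1 (746 and 753, 0.014) and POLE (445 and 498, 0.16) differed by less than these 3, and so did POLE3, a histone-fold subunit (0.25). The POLD1 difference turned to −0.019 after quantile normalization.

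Polymerase alpha and primase, which lay down the RNA-DNA primers, had a median of 0.14. The catalytic subunit POLA1 read 522 and 613 (0.23). The primase subunits PRIM1 and PRIM2 differed by 0.079 and 0.12. POLA2 was at 0.16 in its brightest probe set (363 and 406) and at −0.45 in a dimmer one (129 and 95), so its direction is not settled. Another 4 probe sets list PRIM2 together with a related pseudogene and were left out. The brightest pair of these read 138 and 120 (−0.20) and 113 and 170 (0.59).

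The large and small subunits of the clamp loader lay on opposite sides of 0. RFC1 is the large subunit of the loader that places PCNA on DNA, and RFC2 to RFC5 are its small subunits. RFC2 read 1687 and 2755 (0.71), and its other probe set differed by 0.45. RFC3, RFC4 and RFC5 differed by 0.32, 0.27 and 0.29, although 1 of the 3 probe sets of RFC5 read −0.035. RFC1 was lower on the CPEB4-labelled array at both kept probe sets, with 1674 and 1359 (−0.30) and 1667 and 1304 (−0.35).

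The clamp itself gave nearly equal signal on both arrays. PCNA read 14206 and 14199, a difference of −0.00066, and lay at 0.019 and 0.037 after quantile and loess normalization. The large subunits of alternative loaders, which share RFC2 to RFC5, were measured outside the list. CHTF18, which serves the cohesion-linked loader, read 368 and 565 (0.62), and DSCC1, another subunit of that loader, read 1906 and 2923 (0.62). CHTF8, a further subunit of the cohesion-linked loader, read 2790.2 and 2833 (0.022). ATAD5, which unloads PCNA, read 204 and 207 (0.021).

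RPA, the trimer that coats single-stranded DNA, had a small median of 0.073 over 3 genes. RPA1 read 7364 and 7321 (−0.0085), and RPA2 and RPA3 differed by 0.18 and 0.073. The 3 probe sets of RPA1 ran from −0.14 to −0.0085, and the brightest turned to 0.020 after quantile and 0.016 after loess normalization. Of the enzymes that finish the lagging strand, the flap nuclease FEN1 read 5394 and 7168 (0.41), and its other probe set differed by 0.27. The nuclease and helicase DNA2 read 325 and 435 (0.42). LIG1, the ligase that seals the fragments, went the other way, with 731 and 605 (−0.27) at its only probe set.

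Genes of fork protection lay above 0 at their brightest probe sets, with a median of 0.38. TIPIN, the partner of TIMELESS in the complex that keeps helicase and polymerase together, read 1579.9 and 2438 (0.63) at its only probe set. TIMELESS itself read 1871 and 1933 (0.047), with −0.14 at a dim probe set. CLSPN, which encodes the checkpoint mediator claspin, read 219.8 and 283 (0.36), and −0.04 at a dimmer probe set. WDHD1, which links the helicase to polymerase alpha, differed by 0.40, but its other probe sets read −0.20 and −0.063. Averaged over probe sets, the median of these 4 genes was 0.10, and TIPIN was the only one of them past 1.5-fold.

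Chromatin assembly factor 1 places histones behind the fork. Its subunit CHAF1B read 319 and 359 (0.17). The probe sets of CHAF1A were all higher on the CPEB4-labelled array, by 0.065 at the brightest (762 and 797), 0.52 at the next (506 and 728) and 1.07 at the dimmest kept (102 and 215).

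Probe sets of the same gene gave a measure of spread between probe sets read on the same 2 arrays. Variation between cultures, RNA samples or arrays is not part of it and was not measured. The 51 genes had 95 probe sets, of which 85 were kept, and 66 of the 85 lay above 0 (77.6%, against 50.4% of all 25010 kept probe sets). In 25 genes with at least 2 kept probe sets, the 2 brightest differed from each other by a median of 0.20, close to the size of the group's own median of 0.25, so a single gene with a difference of that size is within this spread. All kept probe sets lay above 0 in 13 of the 25 genes and below 0 in 2 (RFC1 and RPA1), and 10 genes had both signs. Counts of this kind were not made for the 6520 measured genes with a second probe set, so no share over all genes stands beside them. The dimmest probe set of GINS2 and the second one of POLD3 reached the filter on 1 array alone, each on the array where it was brighter. With both left out, 65 of 83 probe sets lay above 0, and of 24 genes with at least 2 probe sets all lay above 0 in 13, below 0 in 2 and on both sides in 9. The second-brightest probe sets, which the gene-level differences do not use, had a median of 0.27 with 16 of 25 above 0 (that of POLD3 among them), against 0.0021 and 50.3% over the 6520 measured genes with a second probe set.

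**Figure D3:**
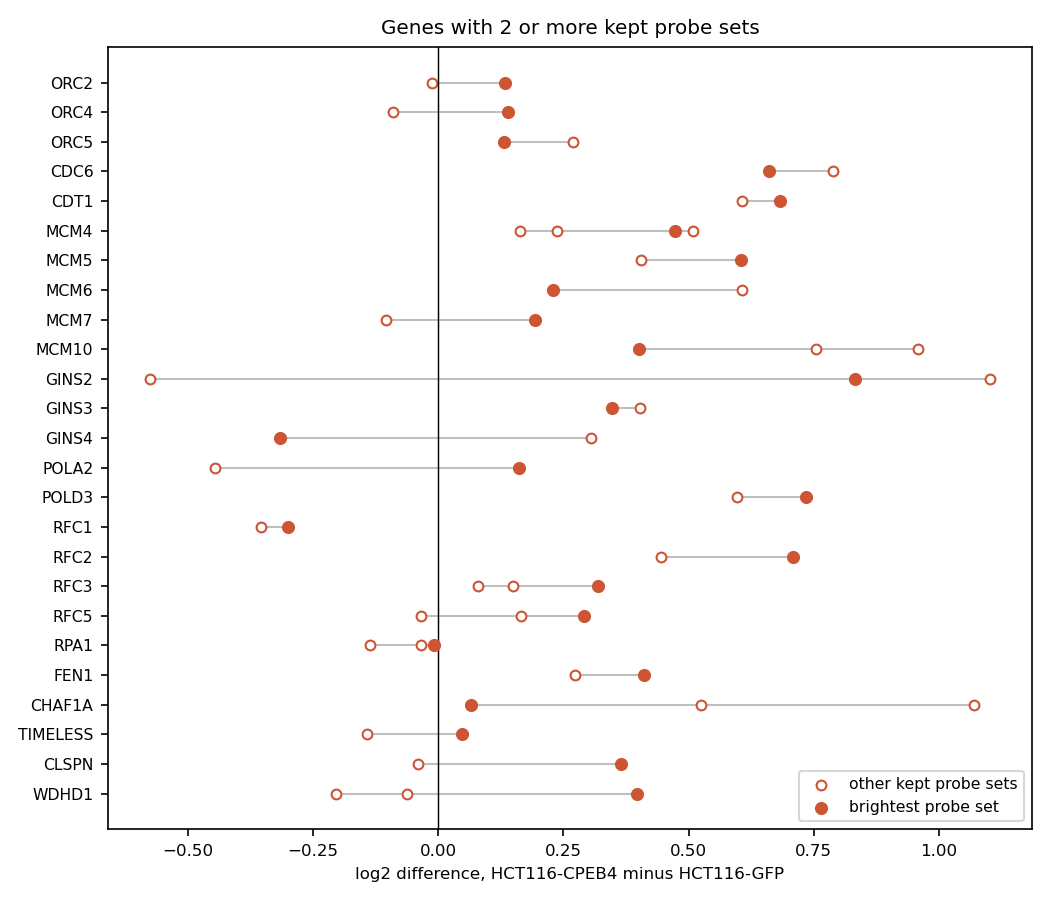
Log2 difference (CPEB4-labelled array minus HCT116-GFP array) at every kept probe set of the 25 replication genes that have at least 2, with the brightest probe set filled. Every probe set lies above 0 for 13 genes, among them CDC6, CDT1, MCM4, MCM5, MCM10 and RFC2, while GINS2, GINS4, POLA2 and WDHD1 have probe sets on both sides of 0. The share of such genes among all measured genes was not computed.

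The promoter matches shown above were then set beside the differences. The 22 genes with an E2F octamer had a median difference of 0.32, with 19 above 0 and 4 of them higher by 1.5-fold or more. The 22 genes with a window and no octamer had a median of 0.14, with 20 above 0 and 2 higher by 1.5-fold or more. The 7 genes without a window had a median of 0.42, with 6 above 0 and 2 higher by 1.5-fold or more. Values in both sets overlapped widely, from −0.27 (LIG1) to 0.83 (GINS2) with an octamer and from −0.30 (RFC1) to 0.71 (RFC2) without. Outside the list, 557 measured genes with an octamer had a median of 0.051 with 55.8% above 0, and 10440 genes without one had −0.0031 with 49.7%. A difference of 1.5-fold or more upwards was found for 41 of those 557 genes (7.36%) and for 792 of the 10440 (7.59%). The difference between these sets of genes was not tested.

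Genes of neighbouring processes gave a scale for the shift. Of 37 measured replication factors outside the list, 25 lay above 0 (67.6%) and 12 below, with a median of 0.21. At the brightest probe sets, 4 were higher by 1.5-fold or more and none lower. The 4 were CHTF18 and DSCC1 with the values above, HELLS and MTBP. HELLS, a chromatin remodeller, read 1606 and 2550.4 (0.67), the highest difference of its 5 kept probe sets, which ran down to 0.086. MTBP, which works with the origin-firing factor TICRR, read 76.1 and 164 (1.11). TICRR itself read 236 and 167 (−0.50), and −0.023 at its other probe set. Topoisomerases TOP1 (−0.35) and TOP2A (−0.14) and the histone chaperone subunit SSRP1 (−0.29, but 0.029 at its other probe set) were below 0.

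G1/S regulators had a smaller median of 0.078 over 26 genes, with 18 above 0, 3 higher and 2 lower by 1.5-fold or more. The higher ones were the phosphatase CDC25A (223 and 726, 1.70, and 0.44 at its other probe set), the cyclin CCNE2 (992 and 1652) and the pocket protein RBL1 (246 and 451, but −0.050 at a dimmer probe set). The lower ones were E2F4 (721 and 428, −0.75, but 0.082 at a dimmer probe set) and E2F5 (456 and 253, −0.85), which act mainly in repressor complexes. The activating factors E2F1, E2F2 and E2F3 differed by 0.44, 0.36 and 0.26 at their brightest probe sets, each under 1.5-fold. The dimmer probe set of E2F1 differed by 2.003, which is past 2-fold, and that of E2F3 by −0.19. TFDP1, RBL2, CCND3 and CCND1 were also under 1.5-fold at their brightest probe sets. Other kept probe sets of these genes reached −2.07 in TFDP1, −0.85 in RBL2, 1.30 in CCND3 and 0.64 in CCND1.

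Nucleotide synthesis genes, which supply the same forks, had a median of 0.028 over 24 genes, with 13 above 0 and 11 below. The 34 genes of G2 phase and mitosis had a median of 0.058, with 21 above 0 and 13 below. None of the genes in these last 2 lists differed by 1.5-fold in either direction at its brightest probe set. Other kept probe sets did, from −1.02 to 0.73 in BUB1, from −0.88 to 0.65 in GART, 0.75 in MTHFD1 and 0.65 in ECT2. The proliferation marker MKI67 read 1492 and 1538 (0.043) at its brightest probe set, and its 4 probe sets ran from −0.28 to that value. No test of the difference between lists is possible with 1 array for each group.

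**Figure D4:**
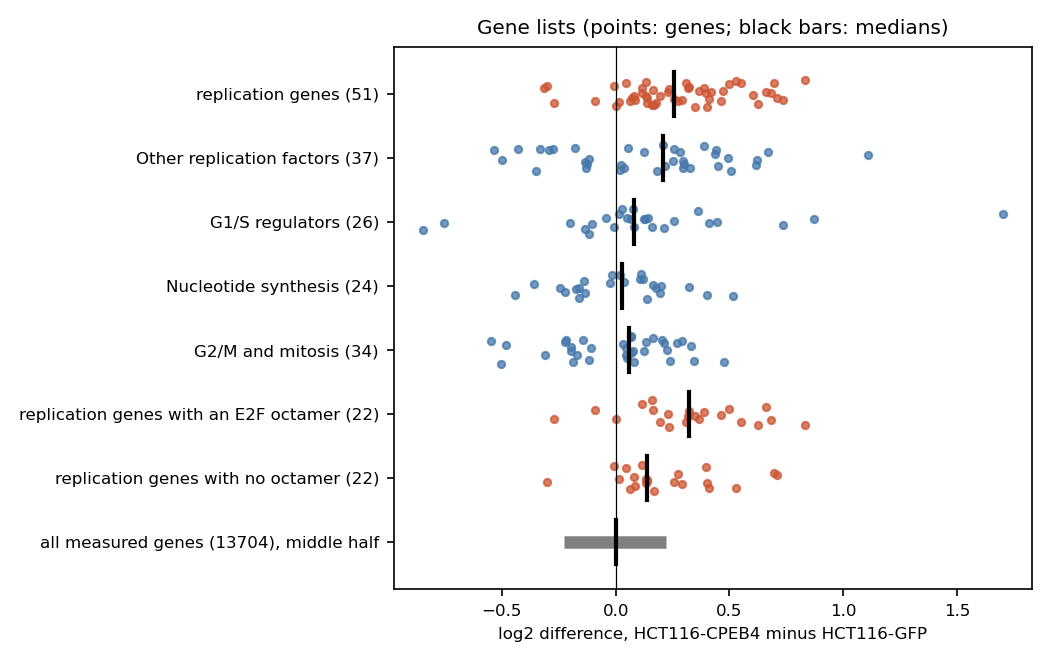
Log2 difference (CPEB4-labelled array minus HCT116-GFP array) of single genes in each list (points) with the list median (black bar), for the replication genes, 4 other lists, and the replication genes with and without an E2F octamer in their promoter windows. The grey bar spans the 25th to the 75th percentile of all 13704 measured genes, from −0.23 to 0.22. The medians are 0.25, 0.21, 0.078, 0.028, 0.058, 0.32 and 0.14 from top to bottom.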

How the data were processed

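Total RNA of 2 cultures, HCT116-GFP and HCT116-CPEB4, was measured on biotin-labelled expression arrays. The authors deposited 1 linear intensity for each of 54675 probe sets and array, and 0 columns were left unused. The submitters' processing notes name Partek. Summarisation, background correction and scaling are stated in none of the sources used here. Probe sets were named by a platform annotation table, with 41043 identifiers matched to RefSeq of GRCh38.p14. Probe sets with 1 gene (41097) were used, those with several (1801) or none (11777) were not.

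Differences are log2 of the deposited intensities without a pseudocount. A probe set was kept where its higher intensity reached 60.8, the 50th percentile, and the one of highest mean log2 stood for its gene. Size rules were 1.5-fold and 2-fold. No probe set position was given, and probe sets marked for cross-hybridisation may read related genes.

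The genes and lists were chosen with earlier results of these data known. All 51 genes are named, and from other lists those past 1.5-fold with both arrays above the filter. ORC1, TICRR, TOP1, TOP2A, SSRP1, POLD4, POLE4, ATAD5, CHTF8, MKI67, E2F1, E2F2 and E2F3 were added after their values were seen. So were BUB1, GART, MTHFD1, ECT2, TFDP1, RBL2, CCND3, CCND1 and the second or other probe sets quoted. The promoter search was also added then. Scripts were tested on simulated data (13698 genes, this comparison), where 50 of 50 genes simulated at 3-fold higher passed 1.5-fold and 10 of 100 simulated at 1.25-fold did. The 8 alternatives are given at the end. Python 3.11.15, pandas 2.3.3 and statsmodels 0.14.6 were used.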

Additional observations from a re-analysis of the deposited data

How the results depend on the processing

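With 8 alternatives (filters, probe set choice, scaling, pseudocount 16), the median of the 51 genes ran from 0.20 to 0.26, with 30 of 38 to 47 of 51 above 0 and none lower by 1.5-fold. All 13 role medians stayed above 0, although some rested on 1 gene. Without probe sets marked _x_at or _s_at, this held for licensing factors, other MCM proteins, the origin-firing kinase and chromatin assembly. Under the stricter filter it held for chromatin assembly. Medians of genes with and without an octamer, computed under the same settings after the values were seen, ran from 0.31 to 0.32 and from 0.13 to 0.15. Medians that moved by over 0.20, the gap between probe sets, and counts by over 1.5 times, were as follows. Averaged over probe sets, the medians were 0.36 for chromatin assembly and 0.10 for fork protection. Without probe sets marked _x_at or _s_at, which left 38 genes, 4 were higher by 1.5-fold, a share close to the 9.63% of all genes measured there. The medians there were 0.073 for Okazaki fragment processing (2 genes, without FEN1) and 0.15 for fork protection. Under that setting ORC6 and CDT1 had no value, and RFC2 (0.45) and MCM5 (0.40) were measured and were under 1.5-fold.

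In single genes, 40 stayed above 0 in every alternative that gave a value and 4 (MCM2, GINS4, RFC1 and LIG1) below. The other 7 changed sign. Without a change of sign, single genes moved by over 0.20 in 2 settings. Averaged over probe sets, MCM10 was 0.70, GINS2 0.45, GINS4 −0.0055, CHAF1A 0.55, CLSPN 0.16 and WDHD1 0.043, and without marked probe sets MCM4 was 0.24, GINS2 1.10, and RFC2 and MCM5 as above. Averaged over probe sets, POLA2 was −0.14 and TIMELESS −0.048. Without marked probe sets, ORC4 was −0.089, POLA2 −0.45, TIMELESS −0.14 and WDHD1 −0.063. With quantile normalization, POLD1 was −0.019, PCNA 0.019 and RPA1 0.020, and with loess PCNA was 0.037 and RPA1 0.016. The cause was not tested. No value was obtained for CHAF1B and CLSPN under the stricter filter, nor for 13 genes without marked probe sets. No paired analysis was possible because each group has 1 array. Precision is limited by that number, and the depth of signal over background is not known here beyond brightness.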
